A study of Mus musculus with 6 samples.

Results

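The nuclear-encoded subunits of the respiratory chain were read on 6 arrays of the mouse lung tumour cells 393P, 3 with a control vector and 3 with an shRNA against MKK4. The members were 59 genes named in a list and assigned to complexes I to V; the rule uses no measured value, but the list was proposed with earlier results of these data known. A gene was measured where a probe set was annotated to it alone, and the brightest such probe set was kept when there were several. By this rule 56 of the 59 were found among the 18193 genes tested. Ndufa11 and Ndufs6 had only probe sets shared with another gene, and no probe set of the table used was annotated to Cox7b. The 393P cells are a mass culture from primary lung tumours of mice that carry the p53R172H∆g/+ genotype, so both groups share a mutant p53 allele. The control cells carry a scrambled vector (393P-scr) and the knockdown cells an MKK4-specific shRNA (393P-shZ). The labels disagree on delivery, since the series design speaks of retroviruses and the treatment protocol of Lipofectamine transfection. Each group was profiled in triplicate cultures of 1 cell population, and p-values therefore reflect how far cultures differ and not how far independently made knockdowns do. The cultures are bulk samples, and fewer cells of a kind cannot be told apart from less RNA per cell.

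Oxidative phosphorylation passes electrons from NADH and succinate through 4 complexes of the inner mitochondrial membrane to oxygen, and uses the proton gradient this builds to make ATP in complex V. Complex I oxidises NADH, complex II is the succinate dehydrogenase of the citric acid cycle, complex III passes electrons from ubiquinol to cytochrome c, and complex IV reduces oxygen. Complex II is encoded in the nucleus alone, while the others combine nuclear subunits with subunits made from mitochondrial DNA. Subunits of a complex are needed in set proportions, and their nuclear genes are known to share promoter motifs for the nuclear respiratory factors NRF1 and GABP, an ETS factor, and for YY1. MKK4, encoded by Map2k4, is a kinase that activates the stress kinases JNK and p38.

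Map2k4 read 700.3, 638.2 and 597.4 intensity units in the control arrays and 240.1, 294.9 and 287.4 in the shRNA arrays, where no shRNA array reached a control array. It was 2.31-fold lower (log2 change -1.21, SE 0.08, n = 3 per group, limma adjusted p = 0.000127); the exact two-sided permutation test gave 0.1, the smallest p that 3 against 3 arrays allow. The arrays had medians of 92 to 95.8 units and correlated across genes at 0.991 to 0.996, and the bacterial control probe sets trpnX reached 26.4 to 39.5 units, taken here as background. All 7 epithelial markers lay above that level on every array, with summed levels of 47199 to 47738 units in the control arrays and 46572 to 47642 in the shRNA arrays. Such a sum follows its brightest genes, here Krt18 with means of 13973 and 14322 units. Of the 7, 1 rose, Krt19 (0.23), and 3 fell, Epcam (-0.35, limma adjusted p = 0.000874), Cdh1 (-0.14) and Cldn7 (-0.13). Of 5 lung lineage markers Sftpb (241.4 to 291.1 units over the 6 arrays), Sftpc (53.9 to 84.3) and Foxa2 (56 to 71) lay above background on every array, and Nkx2-1 (1 to 3.36) and Scgb1a1 (5.92 to 14.7) were at or below it. The summed leukocyte markers spanned 904.9 to 998.2 units against 826.9 to 1039 and the endothelial markers 569.8 to 709.7 against 515.6 to 659.1. Most of the leukocyte sum came from Csf1r, with means of 770.6 and 724.9 units. The fibroblast markers spanned 449.3 to 491.4 against 417.1 to 490.8, and no marker of these 3 lists or of the lung lineage list passed the test. Of these lists 4 of 6 fibroblast, 2 of 5 leukocyte and 3 of 5 endothelial markers lay above background on every array.

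Promoter sequences from RefSeq (GRCm38.p6), windows of 300 bases that end shortly after an annotated start, were found for 45 of the 56 measured members. They were searched on both strands for an NRF1 motif (GCGCANGC), an ETS motif (CCGGAAG) and a YY1 motif (AANATGGC), which do not overlap in what is shown here. A gene with several starts was counted once, if any of its windows held the motif. The NRF1 motif was present in 14 of the 45, or 31.1%, against 11.2% of the 27025 genes of the table, the ETS motif in 22.2% against 9.93%, and the YY1 motif in 24.4% against 6.96%. The median GC content was 59.3% for the members and 52.8% for all genes. Among the 36 members with a promoter that did not pass the test of expression, 12 held the NRF1 motif, 7 the ETS motif and 10 the YY1 motif. Among the 6 that rose, 2, 1 and 1 did so, and among the 3 that fell, 0, 2 and 0. The 5 promoters shown belong to members described closely below, picked with their values known: the pair Atp5g1 and Atp5g3, which encode the same mature protein, Ndufs4, and the falling genes Ndufv2 and Uqcrh. Capitals mark a motif, and a motif in the other orientation appears as its reverse complement. A match is a run of letters, not a measured binding site.
Atp5g1, chr11:96075582-96075881, minus strand: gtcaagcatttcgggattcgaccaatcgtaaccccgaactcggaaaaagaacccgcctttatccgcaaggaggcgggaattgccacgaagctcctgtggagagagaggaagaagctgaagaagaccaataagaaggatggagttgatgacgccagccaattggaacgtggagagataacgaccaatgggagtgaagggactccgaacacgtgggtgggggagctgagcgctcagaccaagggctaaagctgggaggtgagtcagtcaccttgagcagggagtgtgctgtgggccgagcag
Atp5g3, chr2:73911277-73911576, minus strand: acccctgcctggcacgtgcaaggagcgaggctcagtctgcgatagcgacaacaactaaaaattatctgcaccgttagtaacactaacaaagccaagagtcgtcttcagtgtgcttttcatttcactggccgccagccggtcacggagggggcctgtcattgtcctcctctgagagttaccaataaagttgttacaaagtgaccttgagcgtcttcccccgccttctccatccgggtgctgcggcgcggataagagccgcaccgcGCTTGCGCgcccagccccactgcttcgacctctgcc
Ndufs4, chr13:114388045-114388344, minus strand: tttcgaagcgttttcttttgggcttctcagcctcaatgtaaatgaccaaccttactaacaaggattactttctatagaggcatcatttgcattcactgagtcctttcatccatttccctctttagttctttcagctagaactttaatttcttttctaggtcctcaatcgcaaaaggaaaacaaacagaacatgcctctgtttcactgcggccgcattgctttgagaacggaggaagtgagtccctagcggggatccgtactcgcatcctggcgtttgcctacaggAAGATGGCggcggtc
Ndufv2, chr17:66101510-66101809, minus strand: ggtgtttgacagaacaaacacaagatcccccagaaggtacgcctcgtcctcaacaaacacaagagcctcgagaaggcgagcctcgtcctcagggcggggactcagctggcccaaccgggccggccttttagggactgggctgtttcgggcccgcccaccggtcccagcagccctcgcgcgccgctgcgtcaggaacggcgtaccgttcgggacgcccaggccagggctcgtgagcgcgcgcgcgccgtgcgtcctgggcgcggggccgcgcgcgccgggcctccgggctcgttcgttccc
Uqcrh, chr4:116075021-116075320, minus strand: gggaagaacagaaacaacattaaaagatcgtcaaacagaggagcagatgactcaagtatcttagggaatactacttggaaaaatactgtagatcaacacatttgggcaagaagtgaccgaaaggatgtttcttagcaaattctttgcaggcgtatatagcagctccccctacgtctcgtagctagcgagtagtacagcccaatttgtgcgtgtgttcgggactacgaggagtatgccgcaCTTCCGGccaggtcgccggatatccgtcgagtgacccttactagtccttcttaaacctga
The Atp5g3 window holds an NRF1 motif, the Ndufs4 window a YY1 motif just past the start and the Uqcrh window an ETS motif. The Atp5g1 and Ndufv2 windows held none of these letters.

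Of the 56 measured members, 10 rose and 3 fell with the MKK4 shRNA, and 43 did not pass the test (limma, Benjamini-Hochberg adjusted over all genes, threshold 0.05). The changes were small, from -0.23 to 0.45 on the log2 scale. Over all 18193 genes 11.8% passed, 6.37% higher and 5.39% lower. The members are bright, however, with 55 of 56 at 1000 units or more on average, and among the 3428 genes that bright 15.3% rose and 14.7% fell. The 10 of 56 that rose stand near that share of bright genes, and the 3 of 56 that fell stand below it. In 25 members the control and shRNA arrays did not overlap after normalization, 18 with the shRNA arrays higher and 7 lower. The share was 28.5% of all genes and 52.1% of bright genes. The median change was 0.02 for the members and -0.01 for all genes, with 33 members above 0 and 23 below. The median of the members, relative to the control mean, was -0.03, 0.02 and 0.02 in the control arrays and 0.02, 0.03 and 0.00 in the shRNA arrays, so the groups overlapped, while single subunits of complexes I and III went opposite ways.

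**Figure D1:**
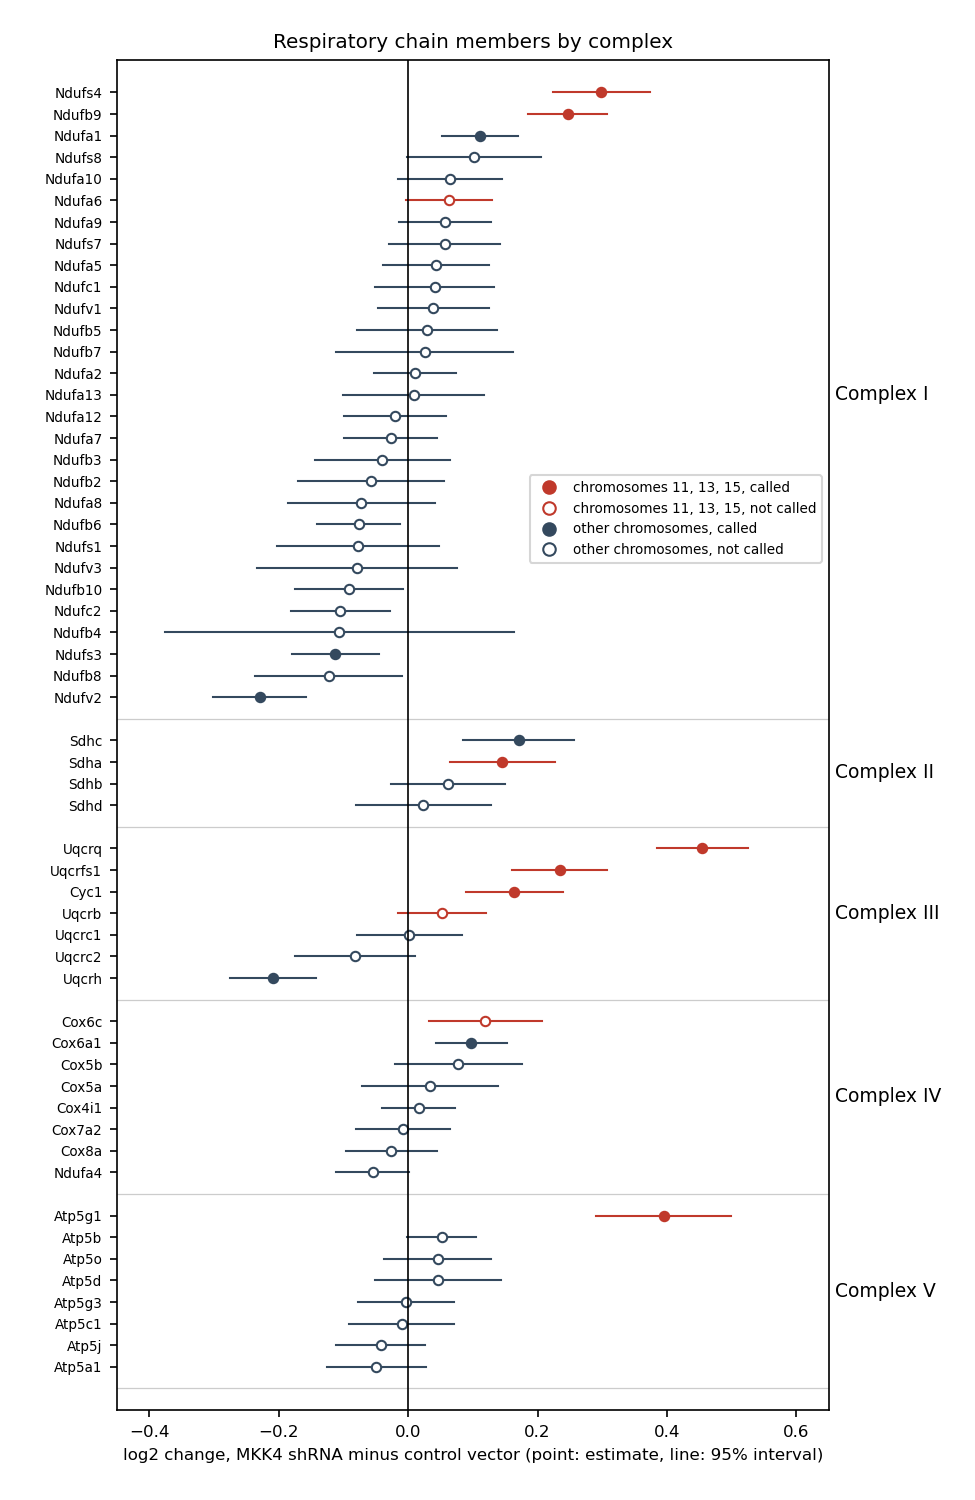
Log2 change of each of the 56 measured members (MKK4 shRNA minus control vector, horizontal axis) by complex, with the 95% interval as a line. Filled points passed the test (10 higher, 3 lower), and red marks genes of chromosomes 11, 13 and 15; the points range from -0.23 (Ndufv2) to 0.45 (Uqcrq).

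The members that did not pass were measured closely. Of these 43, 42 had a 95% interval that lay within a 1.25-fold change either way (0.32 on the log2 scale). The interval reached a median of 0.08 to either side on that scale. The exception was Ndufb4, whose only own probe set is dim, at 70.8 ± 10.5 units in the control arrays and 64.5 ± 1.34 in the shRNA arrays (SD, n = 3), with an interval from -0.38 to 0.16. Brighter probe sets shared by Ndufb4 and its near copies Ndufb4b and Ndufb4c changed by 0.10 and 0.03.

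Complex I, which oxidises NADH and passes its electrons to ubiquinone, had 29 measured members, of which 3 rose and 2 fell, with a median change of 0.01. Its core of catalytic subunits, present also in bacteria, was represented by 6 nuclear genes, and both falls lay there, with no rise. Of the 23 accessory subunits, which surround the core, 3 rose and none fell. These small counts are to be read beside the 15.3% of bright genes that rose and the 14.7% that fell. The accessory rises Ndufs4 and Ndufb9 lie on chromosomes 13 and 15, where many bright genes rose. The core fall Ndufs3 lies on chromosome 2, where 138 of 320 bright genes fell. A difference between core and accessory subunits was not tested.

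Ndufv2 encodes an iron-sulfur subunit of the arm that takes up NADH. It read 3715, 3692 and 3649 units in the control arrays and 2981, 3299 and 3208 in the shRNA arrays, so every shRNA array lay below every control array. The change was -0.23 (SE 0.03, limma adjusted p = 0.00307), and 2 further probe sets gave -0.26 and -0.22. Ndufs3, a core subunit of the arm that links to the membrane, read 2483, 2472 and 2507 units against 2221, 2384 and 2395, again without overlap. Its change of -0.11 (SE 0.03, adjusted p = 0.0425) was near the threshold and did not pass when any 1 of the 6 arrays was left out (adjusted p 0.0517 to 0.13). Ndufb8, an accessory subunit of the membrane arm, had the largest change among those of complex I that did not pass, at -0.12 (adjusted p = 0.172). It read 2963, 3230 and 3306 units against 2879, 2913 and 3010, and the groups overlapped.

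Ndufs4, an accessory subunit needed for stable assembly of the NADH-oxidising arm, rose most in complex I. It read 1568, 1508 and 1549 units in the control arrays and 1875, 1909 and 1956 in the shRNA arrays, well apart. The change was 0.30 (SE 0.03, adjusted p = 0.00119). A second probe set at 659.2 units in the control arrays gave 0.30 as well, while 2 dim ones, at 187.8 and 70.7 units, gave 0.03 and -0.05, and the mean of all 4 did not pass (0.14, adjusted p = 0.109). Ndufb9, an accessory subunit of the membrane arm, read 4587, 4619 and 4677 units against 5573, 5714 and 5565, without overlap. It rose by 0.25 (SE 0.03, adjusted p = 0.0011), and a second bright probe set gave 0.31. Ndufa1, a small membrane subunit needed for assembly, read 2742, 2705 and 2719 units against 2901, 3016 and 3009. Its rise of 0.11 (SE 0.03, adjusted p = 0.0286) lost the call when any 1 array was left out (adjusted p 0.0613 to 0.0857). In the same cultures the accessory subunits Ndufs4 and Ndufb9 rose and the core subunit Ndufv2 fell.

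Complex II has 4 subunits, all measured and all above 0, with a median change of 0.10; 2 rose and none fell. Sdhc, a membrane anchor that holds the haem, read 989, 983 and 960.1 units in the control arrays and 1089, 1117 and 1121 in the shRNA arrays. It rose by 0.17 (SE 0.04, limma adjusted p = 0.0222). Sdha, the flavoprotein that oxidises succinate, read 1752, 1694 and 1616 units against 1782, 1904 and 1958, with 1782 just above the highest control array. It rose by 0.15 (SE 0.04, adjusted p = 0.0334), and a second probe set at 1125 units in the control arrays gave 0.03. Both rises were near the threshold: each failed in 5 of the 6 fits that left out 1 array, with adjusted p up to 0.0731 for Sdhc and 0.114 for Sdha. Sdhb, the iron-sulfur subunit, read 2324, 2447 and 2462 units against 2500, 2617 and 2543 and did not pass (0.06, adjusted p = 0.396). Sdhd, the other membrane anchor, changed by 0.02 (adjusted p = 0.822).

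Complex III held the largest rise of the 56 members, Uqcrq, and the second largest fall, Uqcrh. Of its 7 members 3 rose and 1 fell, and the median change was 0.05. Uqcrq, a small subunit that sits beside cytochrome b, read 2812, 2873 and 2903 units in the control arrays and 3920, 3938 and 3992 in the shRNA arrays, the widest gap of any member. It was 1.37-fold higher (0.45, SE 0.03, limma adjusted p = 0.00014). The kept probe set is one that can match several transcripts, and the other 3 probe sets of Uqcrq are dim, at 315, 189.3 and 110 units in the control arrays, with changes of 0.09, 0.02 and 0.50. When probe sets of that kind were left out the brightest remaining one gave 0.09 (adjusted p = 0.613), so the Uqcrq call rests on 1 probe set. Uqcrh, the acidic hinge subunit that helps cytochrome c1 meet cytochrome c, went the other way. It read 3374, 3426 and 3494 units against 2888, 3073 and 3027, without overlap, a change of -0.21 (SE 0.03, adjusted p = 0.0032), and a second probe set gave -0.27. Without the trend in the prior variance Uqcrh just missed the threshold (adjusted p = 0.0501).

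The nuclear-encoded subunits of complex III that carry a redox centre, Uqcrfs1 and Cyc1, both rose. Uqcrfs1, the Rieske iron-sulfur protein, read 2929, 2914 and 3021 units in the control arrays and 3336, 3619 and 3586 in the shRNA arrays. It rose by 0.23 (SE 0.03, limma adjusted p = 0.00304). Cyc1, cytochrome c1, read 3830, 3929 and 4036 units against 4480, 4494 and 4485, with almost no spread among the shRNA arrays. It rose by 0.16 (SE 0.03, adjusted p = 0.015), and lost the call without any 1 of the 3 shRNA arrays (adjusted p up to 0.0607). The core proteins Uqcrc1 and Uqcrc2, which face the matrix, changed by 0.0019 and -0.08 (adjusted p = 0.264 for Uqcrc2), and Uqcrb by 0.05. The log2 ratio of Uqcrq to Uqcrh, taken within each array, was -0.27, -0.26 and -0.26 in the control arrays and 0.43, 0.37 and 0.40 in the shRNA arrays. The shift of 0.66 had the smallest p that an exact two-sided permutation test allows here, 0.1. The pair was picked after its values were seen. Each gene already separated the groups, in opposite directions, so this p was fixed in advance and adds nothing to the single genes.

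Complex IV, cytochrome c oxidase, had 1 of 8 members higher, none lower and a median change of 0.03. Cox6a1, the widely expressed form of a regulatory subunit, read 9229, 9167 and 9153 units in the control arrays and 9866, 9711 and 10033 in the shRNA arrays. The groups did not overlap, but the rise was only 0.10 (SE 0.02, limma adjusted p = 0.0341), and it did not pass when any 1 array was left out (adjusted p 0.0666 to 0.109). A second probe set gave 0.13. Cox6c, a small membrane subunit, read 5079, 5421 and 5361 units against 5595, 5971 and 5981 and had the largest change in complex IV that did not pass (0.12, adjusted p = 0.0886). Ndufa4, named for complex I but counted with complex IV, where it is now placed, read 5318, 5409 and 5398 units against 5214, 5295 and 5331. Its groups overlapped in these units and lay just apart after normalization, with a change of -0.06 (adjusted p = 0.223).

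Complex V, the ATP synthase, had 8 measured members, of which only Atp5g1 passed, with a median change of 0.02. The other 7 lay between -0.05 and 0.05, including Atp5a1 and Atp5b, the subunits of the catalytic hexamer. Atp5b read 6289, 6186 and 6228 units in the control arrays and 6433, 6621 and 6684 in the shRNA arrays and did not pass (0.05, limma adjusted p = 0.226). Atp5g1, Atp5g2 and Atp5g3 encode the same mature subunit c, the ring that turns with the proton flow, with different import signals. Atp5g1 read 1198, 1255 and 1272 units against 1586, 1753 and 1608, every shRNA array above every control array. It was 1.32-fold higher (0.40, SE 0.05, adjusted p = 0.00144), and its only other probe set, at 15.5 units in the control arrays, was at background. The mean of both probe sets did not pass (0.10, adjusted p = 0.503). Atp5g3 read 7586, 7950 and 7949 units against 7943, 7918 and 7919, so that the groups overlapped (-0.0033, 95% interval -0.08 to 0.07). The log2 ratio of Atp5g1 to Atp5g3 was -2.66, -2.66 and -2.62 in the control arrays and -2.25, -2.21 and -2.28 in the shRNA arrays, a shift of 0.40 (exact permutation p = 0.1).

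**Figure D2:**
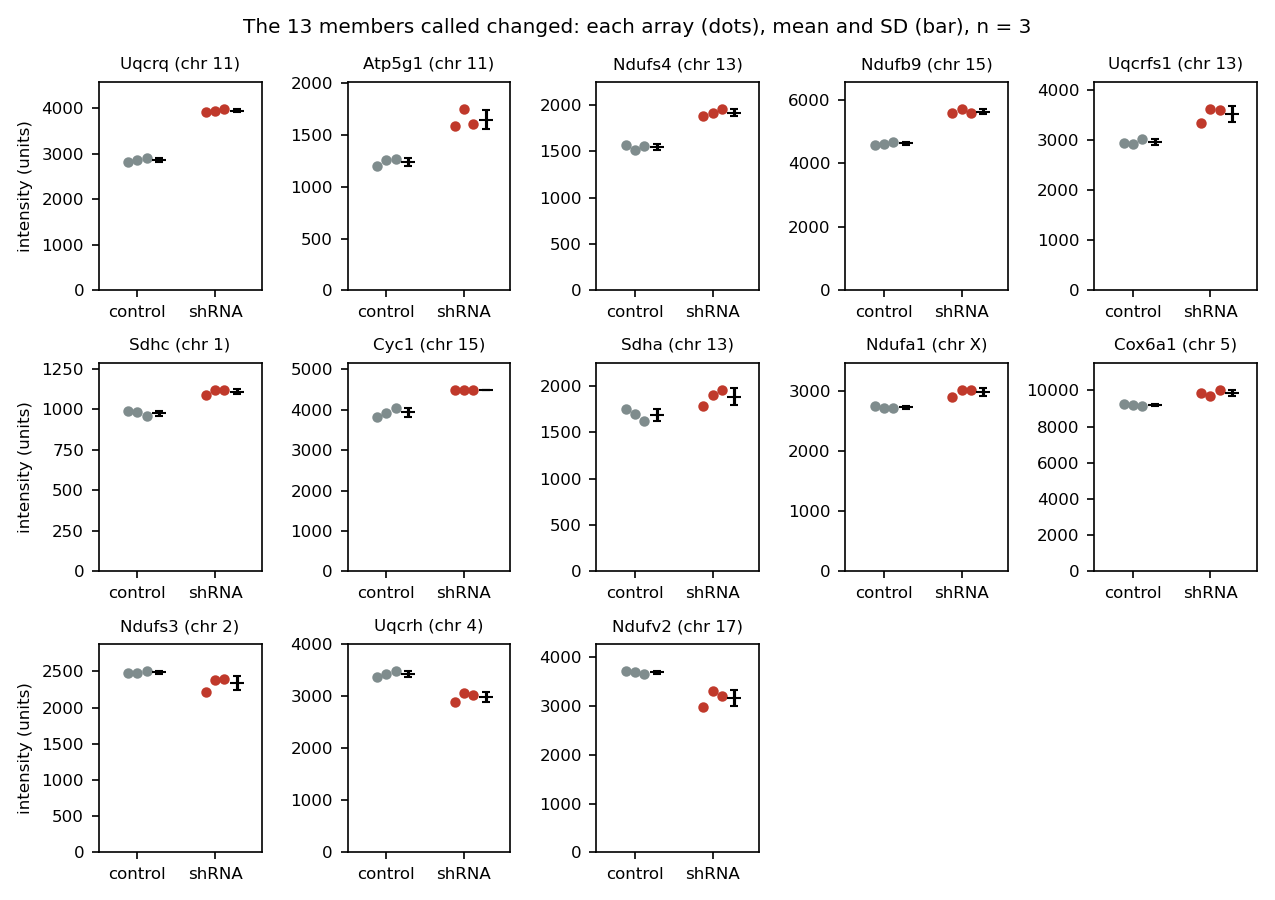
Intensity (units, from 0) of the 13 members that passed, 1 dot per array, with the mean and SD (n = 3) as a bar beside each group. In each of the 13 the control and shRNA arrays do not overlap; Uqcrq has the widest gap (2812 to 2903 against 3920 to 3992 units) and Sdha the narrowest relative to its spread (1616 to 1752 against 1782 to 1958).

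The rising members lay largely on 3 chromosomes. Genes of chromosomes 11, 13 and 15 were known from earlier results on these arrays to read higher in the shRNA group, and the members were therefore set apart by chromosome (GRCm38.p6). Of the 10 members on these chromosomes 7 rose, none fell and all 10 were above 0, with a median change of 0.20 and a range of 0.05 to 0.45. In 9 of the 10 the groups did not overlap, as in 64.8% of the genes of 1000 units or more on these chromosomes. Of the 46 on other chromosomes 3 rose and 3 fell, 23 were above and 23 below 0, and the median was -0.0007. In 16 of the 46 the groups did not overlap, against 49.7% of bright genes there. The median over the 10 members, relative to the control mean, was -0.03, 0.01 and 0.02 in the control arrays and 0.19, 0.21 and 0.20 in the shRNA arrays. Over the 46 it was 0.01, 0.01 and -0.02 in the shRNA arrays, within the control arrays' own spread of -0.02 to 0.02.

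Bright genes of any function showed the split for which these chromosomes had been set apart, so it is not a separate result. Of the 554 genes of 1000 units or more on chromosomes 11, 13 and 15, 40.6% rose and 3.07% fell, with a median change of 0.12. Of the 2869 such genes elsewhere 10.4% rose and 16.9% fell, with a median of -0.02. The 7 of 10 members that rose are thus to be read against 40.6%, and the 3 of 46 that rose and the 3 of 46 that fell against 10.4% and 16.9%. By chromosome, 2 of 2 members rose on 11 (Uqcrq, Atp5g1), 3 of 4 on 13 (Ndufs4, Uqcrfs1, Sdha; not Uqcrb) and 2 of 4 on 15 (Ndufb9, Cyc1; not Ndufa6 or Cox6c). The median of bright genes was 0.12 on each of these 3 chromosomes and 0.05 on chromosome 14, the next. Map2k4 also lies on chromosome 11 and was lower there.

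**Figure D3:**
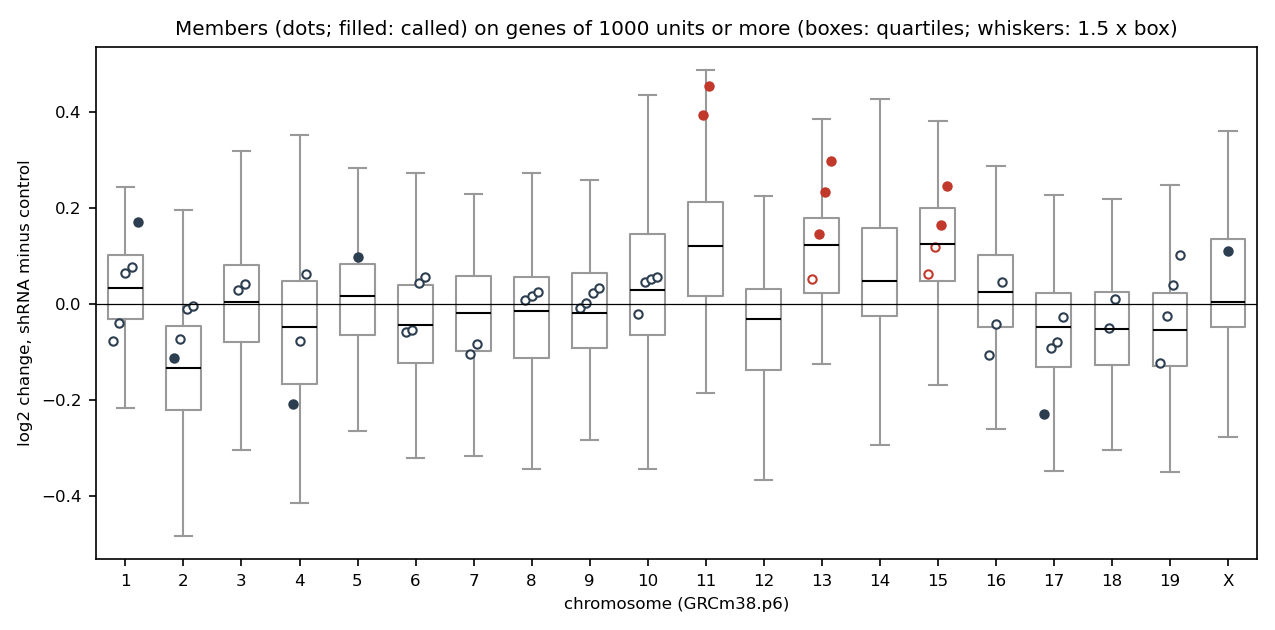
Log2 change (MKK4 shRNA minus control vector, vertical axis) of the members (dots, filled where they passed) beside all genes of 1000 units or more on each chromosome (boxes: quartiles, line: median, whiskers: 1.5 times the box). The boxes of chromosomes 11, 13 and 15 have medians of 0.12 and hold 10 members, all above 0; chromosome 2 has the lowest median, -0.13.

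Some members moved further than their chromosome. On chromosome 11, 6 of the 275 bright genes had a larger change than Uqcrq and 9 a larger one than Atp5g1. On chromosome 13, 8 of 120 exceeded Ndufs4 and 17 exceeded Uqcrfs1, but 50 exceeded Sdha. On chromosome 15, 30 of 159 exceeded Ndufb9 and 62 exceeded Cyc1. Each array was also centred on the median of all genes of the chromosome, dim ones included. The median change of all genes was 0.06 on chromosomes 11 and 15 and 0.05 on chromosome 13, below the 0.12 of bright genes. The centring thus left part of the bright genes' shift in place. After it Uqcrq (0.38), Atp5g1 (0.32), Ndufs4 (0.23), Ndufb9 (0.17) and Uqcrfs1 (0.16) still passed, with limma adjusted p from 6.29e-05 to 0.0171. Cyc1 (0.09, adjusted p = 0.111) and Sdha (0.07, adjusted p = 0.257) did not, nor did Ndufa1 (0.09, adjusted p = 0.0861). Ndufv2 (-0.19) and Uqcrh (-0.18) passed as falls after the centring. Ndufs3, on chromosome 2, where 138 of 320 bright genes fell and the median was -0.13, came to -0.03 (adjusted p = 0.653).

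The nearest bright genes on the chromosome, up to 10 on each side, were read in the same way. Members that lie close together share neighbours and can be neighbours of each other, as Sdha is of Uqcrb. A gene can therefore be counted more than once in the totals below. Around the 7 members of chromosomes 11, 13 and 15 that rose, 60 of 136 such neighbours rose and 5 fell, and around the 3 that did not pass, 30 of 60 rose. The neighbours' median was 0.18 around Uqcrq, 0.10 around Atp5g1, 0.17 around Ndufs4, 0.20 around Ndufb9, 0.08 around Uqcrfs1, 0.17 around Cyc1 and 0.14 around Sdha. Cyc1 and Sdha were at the level of their neighbours, and Uqcrq, Atp5g1, Ndufs4 and Uqcrfs1 were more than 0.1 above it. Around the 3 members that rose on other chromosomes, 11 of 60 neighbours rose, and around the 40 that did not pass, 77 of 770 rose and 103 fell. Of those 11, 7 lay around Ndufa1, whose neighbours had a median of 0.10 beside its own change of 0.11. The neighbours' median was 0.03 around Sdhc and 0.0025 around Cox6a1. Around Ndufv2, 7 of 20 neighbours fell and none rose (median -0.09), while around Uqcrh the median was 0.00. The part of the shift of whole chromosomes and neighbours in the members' changes was not tested.

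**Figure D4:**
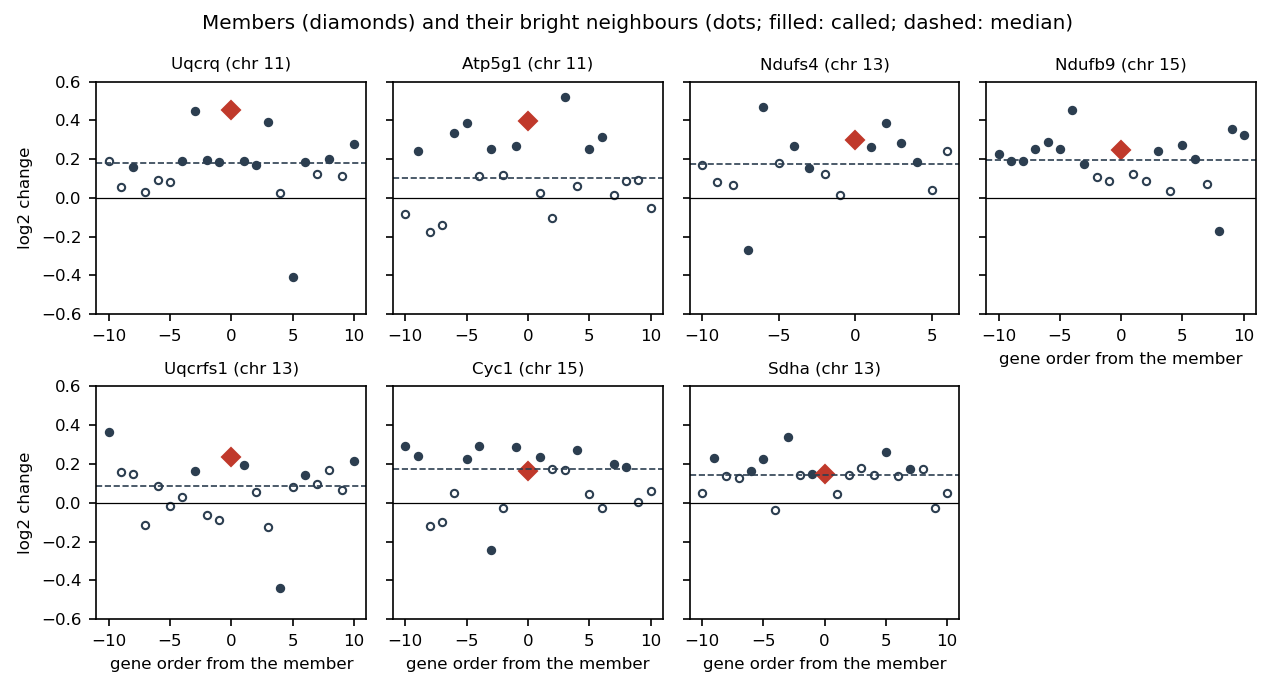
Log2 change of the 7 rising members of chromosomes 11, 13 and 15 (diamonds) and of up to 10 genes of 1000 units or more on each side, in gene order (horizontal axis); filled dots passed the test and the dashed line is the neighbours' median. The median lies above 0 in all 7 panels, from 0.08 (Uqcrfs1) to 0.20 (Ndufb9), and Uqcrq and Atp5g1 stand well above theirs.

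Other probe sets of the members that passed mostly had the same sign, but not always a like size. Of the measured members 21 had 1 probe set and 35 had several. Among the members that passed, 14 further probe sets lay above background, and 13 of them had the sign of the kept one. Some of these were close to 0, as for Sdha (0.03 and 0.02), Ndufs4 (0.03) and Uqcrq (0.02). Further probe sets of Cox6a1, Ndufb9, Ndufs4, Ndufv2 and Uqcrh passed over all probe sets, and none of Sdha, Sdhc or Uqcrq did. Among members that did not pass, signs could differ, as for Uqcrc2 (-0.08 and 0.01) and Ndufa12 (-0.02 for the kept one, 0.02 and 0.04 for others). No member had probe sets that passed in both directions.

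The other genes of the pathway were read from 9 lists of 130 genes, of which 122 were measured; 17 rose, 6 fell, and the median change was 0.03. On chromosomes 11, 13 and 15, 5 of 16 rose and 1 fell, with a median of 0.16, against 15.5% higher and 1.67% lower among all genes of these chromosomes. Elsewhere 12 of 106 rose and 5 fell, with a median of 0.01, against 4.7% higher and 6.14% lower. The lists hold both bright and dim genes, and bright genes pass more often. Among genes of 1000 units or more, 40.6% rose and 3.07% fell on chromosomes 11, 13 and 15. On the other chromosomes 10.4% of such genes rose and 16.9% fell. The counts of single lists given below are to be read beside these shares. Of the 14 measured subunits outside the member list 2 rose, Atp5h of the ATP synthase stalk (0.21, SE 0.04, limma adjusted p = 0.0117, chromosome 11) and Atp5g2, the other gene of subunit c (0.16, SE 0.03, adjusted p = 0.00782, chromosome 15). Both passed in 13 of the 16 settings. Atp5g2 lost its call with chromosome centring (0.086, adjusted p = 0.0994), with its probe sets averaged (0.095, adjusted p = 0.44) and without the trend in the prior variance (adjusted p = 0.0989). Atp5h lost its call without that trend (adjusted p = 0.0856), with the replicate block (adjusted p = 0.0521) and without shRNA replicate 2 (0.19, adjusted p = 0.0642), and gave 0.14 with chromosome centring. None of 8 alternative, mostly tissue-restricted subunit isoforms passed.

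Assembly factors moved in both directions. Ndufaf2, a chaperone of complex I on chromosome 13, rose by 0.47 (SE 0.04, limma adjusted p = 0.00047), an estimate above that of any member, and passed in all 16 alternative settings. Ndufaf1, which acts in building the membrane arm of complex I, fell (-0.32, SE 0.04, adjusted p = 0.00304), and so did Ndufaf7, a methyltransferase for a core subunit (-0.21, adjusted p = 0.0379), in 4 of the 15 settings where it was measured, while Timmdc1, a membrane-arm assembly factor, rose by 0.24 (adjusted p = 0.018). Ndufaf1 lies on chromosome 2, where 138 of 320 bright genes fell, and the part of the chromosome in its fall was not tested. In all, 2 of 13 complex I assembly factors rose and 2 fell. Of 19 complex IV assembly factors 3 rose, Coa7 (0.31), Cox11 (0.23) and Cox18 (0.18), and Cox20 fell (-0.26); Coa7 and Cox11 passed in 5 and 6 of the 16 settings. Of 14 factors for complexes II, III and V only Lyrm7, a chaperone of the Rieske protein, passed (-0.66), at 42.1 units in the control arrays and 20.6 in the shRNA arrays, near background.

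Among the carriers that feed and drain the chain, Slc25a5, the ADP/ATP translocase of dividing cells, rose most (0.32, SE 0.04, limma adjusted p = 0.00144) and passed in all 16 settings. The channel genes Vdac1 (0.19, chromosome 11) and Vdac2 (0.12, in 7 of the 16 settings) of the outer membrane rose too. Thus 3 of 8 exchange genes were higher and none lower. Of all genes 6.37% rose and 5.39% fell, and of genes of 1000 units or more 15.3% and 14.7%. Of 13 genes of cytochrome c and ubiquinone 2 rose, the ubiquinone synthesis genes Coq9 (0.24) and Coq2 (0.16), and Cycs, cytochrome c itself, did not pass (0.03, adjusted p = 0.717). In the citric acid cycle and pyruvate dehydrogenase list 4 of 17 rose and 2 fell. Sucla2, the ADP-forming beta subunit of succinyl-CoA synthetase, fell (-0.37, adjusted p = 0.0104), though the mean of its probe sets gave -0.0026. Its GDP-forming counterpart Suclg2 rose by 0.15 (adjusted p = 0.0371). Idh3b, a subunit of the NAD-dependent isocitrate dehydrogenase, fell (-0.28, adjusted p = 0.00641) while Idh3g of the same enzyme rose by 0.18 (adjusted p = 0.0153). Idh3b lies on chromosome 2, where 138 of 320 bright genes fell (median -0.13), and Idh3g on X, where 21 of 93 rose. The part of the chromosome in these changes was not tested. Dlst, of the oxoglutarate dehydrogenase complex, rose by 0.16 (adjusted p = 0.0303), in 6 of the 16 settings. Of the other genes named here and among the assembly factors, Coq2 and Timmdc1 passed in 10 of the 16, Idh3g in 11, Cox18 in 13, and Coq9 and Vdac1 in 14.

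Of 16 regulators of mitochondrial biogenesis only Yy1 passed (0.10, SE 0.03, limma adjusted p = 0.0396), and in 5 of the 16 settings. Nrf1 (-0.01), Gabpa, which binds the ETS motif (-0.02), and Tfam, the mitochondrial DNA packaging factor (-0.04), did not pass. Ppargc1a, the coactivator that drives mitochondrial biogenesis in many tissues, was near background at 39.8, 59.2 and 38.1 units in the control arrays and 36.7, 20.1 and 28.6 in the shRNA arrays.

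**Figure D5:**
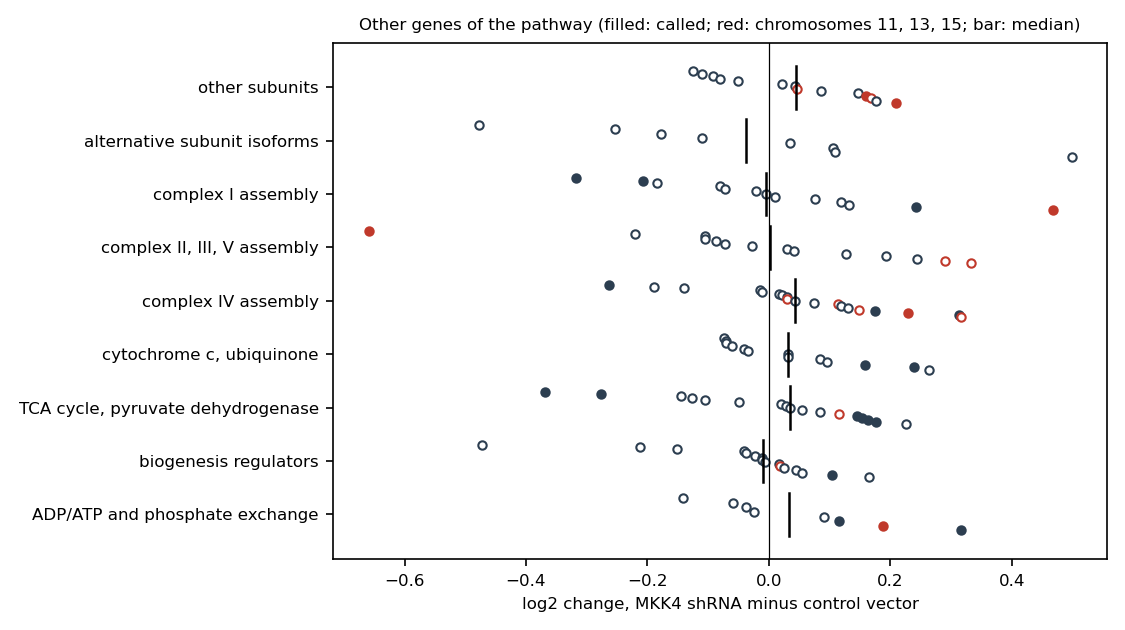
Log2 change (MKK4 shRNA minus control vector, horizontal axis) of the 122 measured genes of 9 lists around the respiratory chain, 1 dot per gene, filled where it passed and red for chromosomes 11, 13 and 15; the vertical bar is the list's median. All medians lie between -0.04 and 0.05, with single genes from -0.66 (Lyrm7) to 0.50 (an isoform gene that did not pass).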

How the data were processed

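Per the labels, biotin-labelled cRNA from the total RNA of each of 6 cultures was read on Affymetrix arrays of 1 colour. The deposited values are linear intensities, 1 per probe set; how probes were summarised, corrected and normalized is not given in the sources used here. A pseudocount of 16 was added, log2 was taken, and the values were quantile-normalized with limma 3.58.1 (R 4.3.3), so changes of dim genes are understated. Levels in units, with their SDs, are the deposited ones. Counts of genes whose groups do not overlap use the normalized values, and for some genes the deposited units differ in this. The brightest probe set annotated to 1 gene was kept, which gave 18193 genes, tested with lmFit and eBayes (trend in the prior variance), with Benjamini-Hochberg adjustment at 0.05. The fit was tested on simulated data. The number of arrays limits the precision.

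The members, lists and alternatives were chosen with earlier results of these data known, and no list was tested as a set. Named genes were Map2k4; in each complex every member called and the largest change not called; Atp5g1, Atp5g3 and Ndufa4; and up to 4 called genes of each list around the chain by size. Suclg2, Cycs, Nrf1, Gabpa, Tfam, Ppargc1a, Ndufb4, Sdhd, Uqcrb, Uqcrc1, Atp5a1 and Ndufa6, named beyond this rule, were chosen after their values were seen, as were the 1000-unit limit and the neighbour comparison. The labels' replicate letters did not pair the arrays: deviations of same-letter arrays correlated at -0.03, -0.01 and -0.11. The 16 alternative settings were no further normalization, array medians centred, a pseudocount of 1 or of 64, brighter genes alone, averaged probe sets of a gene, no probe sets of several possible transcripts, no trend, the replicate letter as a block, chromosome centring, and each of the 6 arrays left out. A further allele that both groups share is not reported here.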

Additional observations from a re-analysis of the deposited data

How the results depend on the processing

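The counts of members called, the members' medians, the changes of the genes named by rule and of ND5, and the counts over all genes were recomputed. This was done in 16 ways, 10 with all arrays and 6 leaving out 1 array. The counts without overlap, shares of bright genes, neighbours, ranks on a chromosome, list counts and ratios were computed in the main setting alone. Of the 13 members that passed, 7 (Ndufv2, Ndufb9, Ndufs4, Uqcrfs1, Uqcrh, Uqcrq and Atp5g1) also passed without each array in turn. The 10 rising members became 6 with array medians centred, 5 where the prior variance had no trend and 5 with the replicate letter as a block (replicate block, 7 called in all). Leaving out 1 array gave 5 to 7: 7 without control replicate 1, 6 without control replicate 2 or 3 or shRNA replicate 2, and 5 without shRNA replicate 1 or 3. The 3 falling members became 1 with no trend, also on the other chromosomes, where the rising count was 0 with medians centred, no trend or the block, and 0 to 1 without 1 array. The sample titles give the letters without saying what they mark, so it is not known whether the block removes a real pairing or only costs precision. Over all genes, 1158 rose and 981 fell, against 971 and 565 as deposited, 877 and 561 with medians centred, 885 and 654 with probe sets averaged, 654 and 473 with no trend, 686 and 520 with the block, and 641 to 913 and 518 to 749 without 1 array.

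Averaging the probe sets of a gene, dim ones included, ended the calls of Atp5g1 (0.10, adjusted p = 0.503), Ndufs4 (0.14, adjusted p = 0.109) and Sdha, and gave medians of 0.059 for complex II, 0.0041 for complex IV and 0.13 for chromosomes 11, 13 and 15. That last median was 0.22 as deposited, 0.15 without probe sets of several possible transcripts, 0.13 with chromosome centring and 0.19 to 0.22 without 1 array. Chromosome centring gave 0.017 for complex III and 0.022 for the other chromosomes, where the values as deposited gave 0.021 and leaving out 1 array -0.025 to 0.0067. Without 1 array the median was 0.0043 to 0.034 for all members, -0.029 to 0.013 for complex I, 0.034 to 0.077 for complex III and -0.015 to 0.031 for complex V, so the sign of the medians of complexes I and V was not stable. Atp5g3 had the other sign as deposited (0.018), with medians centred (0.014), with chromosome centring (0.080) and without control replicate 2 (0.015), control replicate 3 (0.0085) or shRNA replicate 3 (0.0052). It ran from -0.033 to 0.015 without 1 array, and passed in none of the 16. The cause of these shifts was not tested. With 3 arrays per group, the smallest change of a member that passed was 0.10.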

Other observations

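The table also holds a probe set for ND5, a complex I subunit made from mitochondrial DNA, which was singled out after its values were seen. It read 6921, 6622 and 6785 units in the control arrays and 5004, 5918 and 5389 in the shRNA arrays, so the groups did not overlap. It fell by 0.34 on the log2 scale (SE 0.05, limma adjusted p = 0.00509) and passed in all 16 alternative settings. No nuclear member of complex I fell as far, the next being Ndufv2 at -0.23. The difference between ND5 and the nuclear subunits was not tested.

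Members without a usable probe set of their own could be read together with a near copy. The probe set shared by Ndufs6 and Ndufs6b read 2568, 2451 and 2576 units in the control arrays and 2877, 2974 and 2646 in the shRNA arrays, and did not pass (0.14, adjusted p = 0.192 over all probe sets). The brighter probe set shared by Ndufa11 and Ndufa11b, at 1672, 1655 and 1752 units against 1728, 1796 and 1658, changed by 0.03.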
